A study of Bos taurus with 9 samples.

Results

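RSAD2 is the gene of viperin, an antiviral enzyme, and it was followed here across cultured bovine endometrial cells given interferon tau and lysophosphatidic acid (LPA). It is 1 gene among the 9155 that the array names, and it was found as the probe sets whose annotation holds the symbol RSAD2 alone, which is 1 probe set of the 24016 tested. It was chosen by its measured levels in these arrays, with its pattern over the 3 groups already known, so its own levels and differences are given as a description without a test, and tests are kept for other genes. The series holds 9 Affymetrix arrays of Bos taurus cells, 3 for each of 3 groups. The LPA+IFNt group received LPA (1e-06 M) together with interferon tau (IFNt, 1000 antiviral units, volume not stated), the LPA group received LPA alone at the same concentration, and the Control group received phosphate-buffered saline (PBS), with 6 h of exposure. All groups shared the same origin: stromal and epithelial cells from uteri of Holstein/Polish Black and White cows at days 2 to 5 of the oestrous cycle, seeded together at 3 stromal cells to 1 epithelial cell. The cells came from 9 cows and each array carried 1 of 9 pools (n of 3 per pool in the study's design), so pools may share cows and the p-values measure the spread between pools only. No group with interferon tau but without LPA was analysed here, and each value for the interferon is one in the presence of LPA.

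Viperin belongs to the radical SAM enzymes, which use an iron-sulphur cluster to split S-adenosylmethionine (SAM). It turns the nucleotide CTP into a modified form that stops some viral polymerases, and it sits on the endoplasmic reticulum and on lipid droplets. Its gene is a textbook target of type I interferon: the receptor chains IFNAR1 and IFNAR2 activate kinases of the JAK family, and transcription factors that include STAT2 and IRF9 then switch on the interferon-stimulated genes. Interferon tau is the type I interferon by which a ruminant conceptus signals its presence to the endometrium, and LPA is a lipid messenger that acts on G protein-coupled receptors.

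RSAD2 stood in 3 separate steps: far up with LPA and interferon tau, slightly raised with LPA alone, and at a clear but lower level in Control. The levels are log2 values from RMA, so a step of 1 is a doubling of signal. In the LPA+IFNt group replicates 1, 2 and 3 read 13.93, 13.72 and 13.85, in the LPA group 8.56, 8.10 and 8.69, and in the Control group 7.25, 7.17 and 7.40. No array of one group reached the range of another. The group means were 13.83 ± 0.11 with LPA+IFNt, 8.45 ± 0.31 with LPA and 7.28 ± 0.12 in Control (SD, n = 3 each), and the nearest arrays of neighbouring groups were 5.03 apart between LPA+IFNt and LPA and 0.70 apart between LPA and Control. That full order without overlap was met by 0.425% of all probe sets. The Control level lay 4.48 above 2.80, the brightest reading of any probe set for the spiked-in bacterial trp transcript, which served as a mark of dim signal, so RSAD2 was measured on both sides of each difference.

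**Figure D1:**
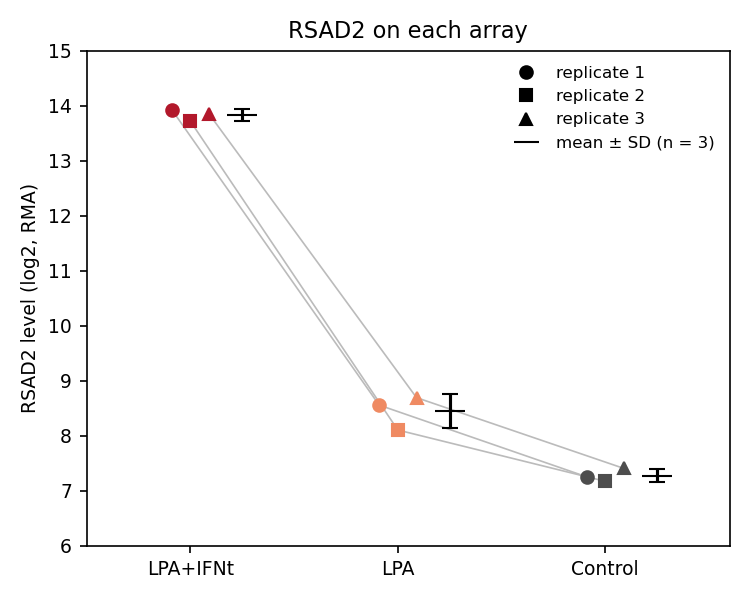
RSAD2 level (log2, RMA) on each of the 9 arrays, with LPA+IFNt, LPA and Control from left to right. Symbols mark the replicate number, grey lines join arrays of the same number, and black bars show the mean ± SD of 3 arrays. The LPA+IFNt arrays sit between 13.72 and 13.93, the LPA arrays between 8.10 and 8.69, and the Control arrays between 7.17 and 7.40.

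LPA+IFNt exceeded Control by 6.56 on the log2 scale (SE 0.15), a 94.2-fold difference. Set against LPA alone, LPA+IFNt was higher by 5.38 (SE 0.15), or 41.7-fold. For comparison, groups that do not overlap with the treated side higher made up 10.2% of probe sets for LPA+IFNt against Control and 7.35% against LPA. Among the genes with both group means at or above the trp mark, RSAD2 ranked 2 of 6989 in LPA+IFNt against Control, after ISG15. In LPA+IFNt against LPA it ranked 6 of 6985. With the dimmer genes kept in, RSAD2 ranked 6 of 9155 against Control and 9 of 9155 against LPA. These differences share arrays, so they are not independent of each other.

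LPA alone was higher than Control by 1.18 (SE 0.15), a 2.26-fold difference. It ranked 13 of 6986 genes with both means at or above the trp mark, and 14 of 9155 with the dimmer genes kept in. On the log2 scale the difference of 1.18 is 17.9% of the distance reached with LPA+IFNt. On the linear scale the gain above Control was 1.35% of the gain with LPA+IFNt. Taken by replicate number, LPA minus Control was 1.30, 0.93 and 1.29 for numbers 1, 2 and 3. Since these groups do not overlap, any pairing of their arrays gives positive differences, so the signs are no separate support. Groups apart with LPA higher were found for 5.13% of probe sets. The lowest RSAD2 value of each group was the array numbered 2, a pattern held by 5.34% of probe sets. Leaving out single arrays gave LPA minus Control values of 1.05 to 1.35.

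Other interferon-stimulated antiviral genes rose under LPA+IFNt, and none of them passed the test under LPA alone. A list of 54 such genes had 36 measured members besides RSAD2, each read from its brightest probe set. In LPA+IFNt against Control 31 of the 36 rose and 0 fell (limma, adjusted p under 0.05), where 3.43% of all genes rose and 3.13% fell, and the list's median difference was 3.09 on the log2 scale, beside -0.01 for all genes. Against LPA the count with LPA+IFNt was again 31 of 36 higher and 0 lower, with 3.75% of all genes higher and 4.16% lower and a list median of 3.09. The 5 members not called against Control were OAS1X, IFIT2, PLAC8A, OASL and HERC5, named after their values were seen. OAS1X passed without LPA+IFNt replicate 2 (adjusted p = 6.65e-05), IFIT2 without LPA+IFNt replicate 1 (0.046), and TRIM25, one of the 31, missed the threshold without LPA+IFNt replicate 1 (0.0533).

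The members with the largest rise were PLAC8B, which stood 8.38 (SE 0.13) above Control with LPA+IFNt, IFI44L at 8.07, IFI44 at 7.69 and MX2 at 7.59, the last encoding an antiviral GTPase. Their Control means lay below the trp mark, so the sizes of those rises are uncertain and were not ranked against RSAD2. ISG15, a ubiquitin-like protein that is attached to other proteins, came closest: 14.56 ± 0.12 with LPA+IFNt, 8.64 ± 0.26 with LPA and 7.93 ± 0.04 in Control (SD, n = 3 each). MX1, the related GTPase gene, averaged 12.81 ± 0.23 with LPA+IFNt, 7.70 ± 0.07 with LPA and 7.47 ± 0.06 in Control. ISG15 thus differed from Control by 6.63 (SE 0.12) and MX1 by 5.35 (SE 0.11).

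In LPA against Control 0 of the 36 members passed the threshold with limma and 3 had an unadjusted p under 0.05 (8.3% of all probe sets did), beside 0.0874% of all genes called higher and 0.0328% called lower. The list's median was 0.04 on the log2 scale, with 24 members above 0 and 12 below. RSAD2's 1.18 was the highest of the 30 list genes, itself included, with both means at or above the trp mark, while 7 others were under it in at least 1 of the groups and were not ranked. ISG15 was the sole member at or beyond 0.5, with a difference of 0.71 (SE 0.12, adjusted p = 0.105). ISG15 did pass without LPA replicate 2 (adjusted p = 0.0127) and with spike-in centring of the arrays (0.0221), a fit in which limma gave every probe set the same spread. SAMD9, a restriction factor for poxviruses, had 0.39 (SE 0.08, adjusted p = 0.194), MX1 0.23, MX2 0.05 and IFI44 0.03. The LPA arrays lay wholly above the Control arrays for ISG15, SAMD9, MX1 and MX2, and wholly below for TRIM25 and SHFL, 6 of the 36 members in all, where 5.13% of probe sets were wholly above and 4.91% wholly below. TRIM25 and SHFL were named after their values were seen. MX2 was under the trp mark in both groups. Whether RSAD2 differs from these genes in its LPA response was not tested.

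**Figure D2:**
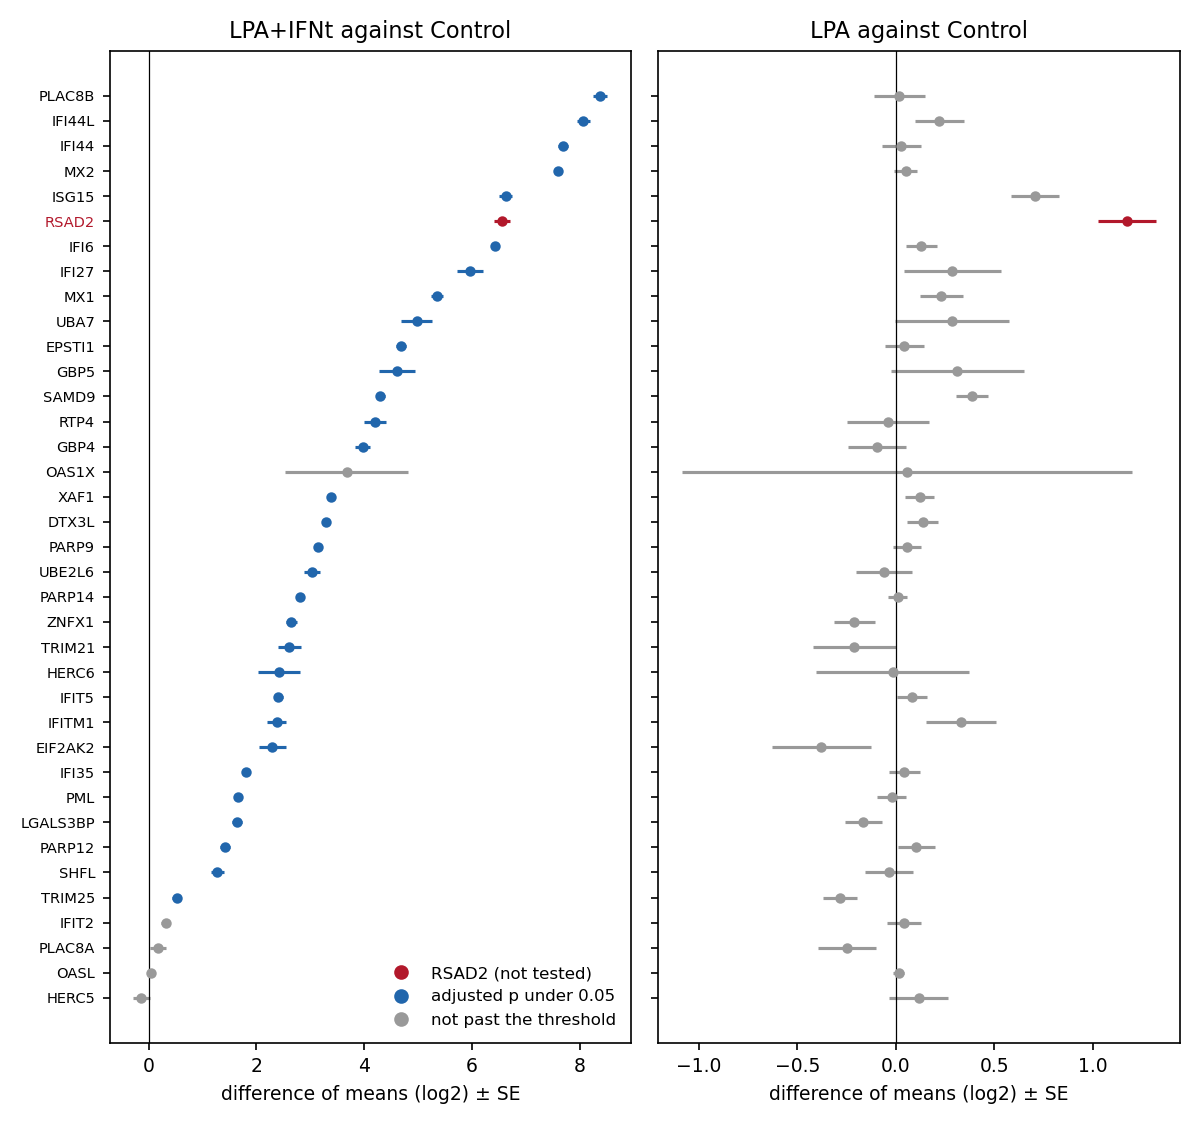
Difference of group means (log2, bars show the SE of the model) for RSAD2 and the 36 other interferon-stimulated genes measured, with LPA+IFNt against Control on the left and LPA against Control on the right, on different scales. Genes run from the highest to the lowest difference of the left panel. RSAD2 stands at 6.56 on the left, close to ISG15 at 6.63, and at 1.18 on the right, where ISG15 follows at 0.71 and no grey point passed the test.

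Genes with the profile most like that of RSAD2 were sought among 222 named genes whose group means span at least 1 on the log2 scale. By Pearson's r over the 9 arrays the 10 closest were ATXN3 (r = 0.998), ISG15 (0.997), NUPR1 (0.996), SAMD9 (0.994), LGALS9 (0.994), CASP4 (0.993), DTX3L (0.991), LOC100298356 (0.991), DAPP1 (0.991) and IFI27 (0.991). These coefficients describe 9 arrays that share 3 groups, with the LPA+IFNt arrays far from the other 6, and they are given without a test. ATXN3, which encodes a deubiquitinating enzyme, shared the order of the groups but not the scale, with 1.91 above Control for LPA+IFNt and 0.39 for LPA. LGALS9, the galectin-9 gene, had 3.48 and 0.54 for the same differences.

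Measured instead by the root mean square difference of Control-centred values over the 9 arrays, ISG15 was nearest at 0.28, followed by IFI27 (0.64), IFI6 (0.64), LOC100298356 (0.84), USP18 (0.89), TNFSF13B (0.89), MX2 (0.90), MX1 (0.90), IFI44 (0.95) and TIFA (0.99). The Control means of MX2, IFI44 and TIFA lay under the trp mark, so their places in this order are uncertain. ISG15, IFI27 and LOC100298356 were on both lists of 10. The closest gene, ISG15, read 14.63, 14.42 and 14.62 with LPA+IFNt, 8.73, 8.35 and 8.84 with LPA, and 7.89, 7.94 and 7.97 in Control. In the LPA group ISG15 and RSAD2 had the same order of arrays, with replicate 3 highest and replicate 2 lowest. IFI27 showed that order too, at 7.30, 6.51 and 7.43 for LPA replicates 1, 2 and 3. Of the same list of 10, TNFSF13B and TIFA also showed it, and IFI6, LOC100298356, USP18, MX2, MX1 and IFI44 did not. These genes were picked for likeness over these same arrays, so a shared order is no separate support.

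**Figure D3:**
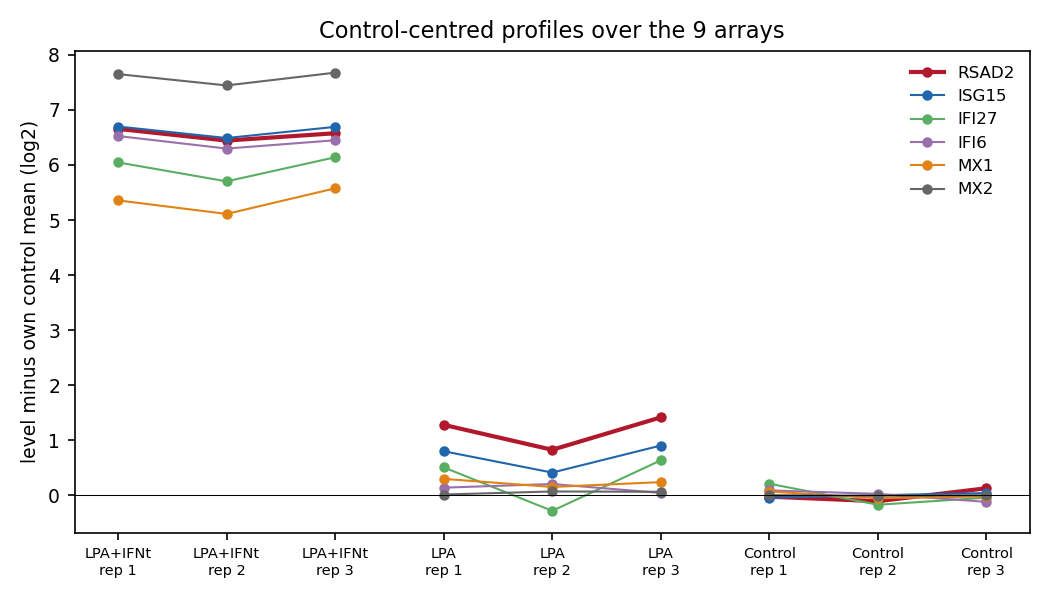
Level minus the gene's own Control mean (log2) on each array for RSAD2, ISG15, IFI27, IFI6, MX1 and MX2, grouped as LPA+IFNt, LPA and Control. Lines join the arrays of 1 group and imply no order. With LPA+IFNt the 6 genes stand 5.35 to 7.59 above Control on average, and on each LPA array RSAD2 lies above the other 5.

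Of the signalling genes that lead to RSAD2, the transcription factor genes STAT2 and IRF9 rose and those of the receptor did not pass the test. IRF9 averaged 8.84 ± 0.22 with LPA+IFNt against 6.23 ± 0.31 in Control (SD, n = 3 each), a difference of 2.61 (SE 0.19, adjusted p = 0.000179), and STAT2 averaged 8.50 ± 0.20 with LPA+IFNt against 6.05 ± 0.06 in Control, a difference of 2.45. Those were 2 of the 6 measured members, also in LPA+IFNt against LPA, and 0 fell. Over all genes 3.43% rose and 3.13% fell against Control, and 3.75% rose and 4.16% fell against LPA. The receptor genes stood at 0.01 for IFNAR1 (adjusted p = 0.971) and 0.17 for IFNAR2 (0.56) in LPA+IFNt against Control, the kinase gene JAK1 at -0.15 (0.488) and STAT3 at -0.15 (0.571). JAK1 was lower in LPA+IFNt than in LPA by a log2 difference of -0.33, with adjusted p = 0.111, which became 0.0455 when replicate numbers were blocked and 0.0148 without LPA replicate 2. TYK2 was not analysed here.

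Among 6 measured brakes on the pathway 1 rose in LPA+IFNt against Control, where 3.43% of all genes did. USP18, whose protein blocks the interferon receptor and strips ISG15 from its targets, averaged 12.25 ± 0.22 with LPA+IFNt, 6.79 ± 0.21 with LPA and 6.69 ± 0.17 in Control (SD, n = 3 each), and all 4 of its probe sets were higher against Control. PRDM1, a repressor reported to act on the viperin promoter in human cells, had -0.21 in LPA+IFNt against Control (adjusted p = 0.473) and -0.45 against LPA (0.0982, or 0.00427 without LPA replicate 2). Those values are from its brightest probe set, and 1 of its 3 probe sets was called lower against LPA. UBE4A, an E4 ubiquitin ligase that in human cells helps to degrade viperin, stood at 0.07 against Control (0.635) and at 0.24 against LPA (0.129, or 0.00888 without LPA replicate 2). SOCS3 lay under the trp mark in every group, and PIAS1 (0.27) and PTPN6 (-0.003) were not called against Control.

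RNA sensors, IRF factors and related signalling genes that can switch on RSAD2 were also partly higher. Of the 12 measured, TLR4, MYD88, MAVS, IKBKE, IRAK1 and TRAF6 are neither RNA sensors nor IRF factors. In LPA+IFNt against Control 6 of the 12 rose and 0 fell, with a median of 0.48. Over all genes 3.43% rose and 3.13% fell. With the replicate block MAVS also rose (adjusted p = 0.00655). DHX58, the gene of the RNA sensor LGP2, was higher by 3.83 (SE 0.07), IRF7, the factor that amplifies type I interferon production, by 1.96 (SE 0.20), the double-stranded RNA receptor gene TLR3 by 1.11 (SE 0.18) and IRF3 by 0.87 (SE 0.07). IRF8 (0.48) and TLR4 (0.57), named after their values were seen, completed the 6, but IRF8 lost its call without Control replicate 2 (adjusted p = 0.0581), LPA+IFNt replicate 1 (0.0529) or LPA+IFNt replicate 3 (0.0522), and TLR4, at adjusted p = 0.0498, lost it without any 1 array other than LPA replicate 2 or LPA+IFNt replicate 2 (0.0552 to 0.168). Of the probe sets, 2 of 3 for IRF7 and 1 of 2 for IRF8 were called higher, against Control and against LPA, as were 2 of 3 for TLR3 against LPA. Against LPA 5 of the 12 genes rose, the same ones without TLR4, where 3.75% of all genes did. MAVS made 6 with the replicate block (0.43, adjusted p = 0.00207). TLR3 missed the threshold in the fit of LPA+IFNt and LPA alone (0.0515), and IRF8 again lost its call without LPA replicate 3 (0.0534), LPA+IFNt replicate 1 (0.0613) or LPA+IFNt replicate 3 (0.0601).

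Under LPA alone none of these 3 groups of genes held a call by limma: 0 of 6 signalling genes (0 at an unadjusted p under 0.05), 0 of 6 brakes (1) and 0 of 12 sensors, IRF factors and related genes (1). IRF9 differed from Control by 0.15, STAT2 by -0.02, USP18 by 0.10 and IRF7 by -0.11 (SE 0.20), while RSAD2 stood 1.18 higher. Of the 21 interferon gene symbols listed only 4 were measured, so the other interferon genes were not examined here. The interferon genes IFNB1, IFNT2 and IFNG were under the trp mark in every group, and IFNAC read 3.04 with LPA+IFNt, 2.99 with LPA and 2.97 in Control. No difference among these 4 interferon genes passed limma's test in any of the 3 comparisons, and 0 of 4 had an unadjusted p under 0.05, where 16.7% of all probe sets did in LPA+IFNt against Control, 17.5% in LPA+IFNt against LPA and 8.3% in LPA against Control.

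Of 13 measured genes that supply viperin with nucleotides and SAM, 1 rose and 0 fell in LPA+IFNt against Control, with a median of -0.03. Over all genes 3.43% rose and 3.13% fell, so single calls in this list and in the iron-sulphur and mevalonate lists are no result about those lists. That gene was MAT2B, the regulatory subunit of the SAM-producing enzyme, at 11.68 ± 0.11 with LPA+IFNt, 11.12 ± 0.14 with LPA and 10.96 ± 0.04 in Control (SD, n = 3 each). MAT2B was 0.72 (SE 0.08, adjusted p = 0.0018) above Control and 0.56 (SE 0.08, adjusted p = 0.00617) above LPA. UMPS, of pyrimidine synthesis, was also higher against LPA (0.24, adjusted p = 0.0312), by 1 of its 2 probe sets. It lost that call without any 1 array other than Control replicate 1 or LPA replicate 2 (0.0585 to 0.111) and with spike-in centring (0.483). CTP synthesis itself showed no call: CTPS1 had -0.02 and CTPS2 -0.07 against Control. The remaining UCK1, UCK2, UCKL1, NME2, DHODH, CAD, AHCY and SLC25A26 held no call and lay between -0.23 (UCKL1) and 0.08 (UCK1). CMPK1, a kinase for CMP and UMP, was lower in LPA+IFNt than in LPA by a log2 difference of -0.22 (adjusted p = 0.0783, which became 0.046 when replicate numbers were blocked and 0.0162 without LPA replicate 3). CMPK2, the gene next to RSAD2 in the RefSeq order of the ARS-UCD2.0 assembly, was not analysed here.

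Iron-sulphur assembly genes, on which the cluster of viperin depends, gave 0 higher and 1 lower of 13 in LPA+IFNt against Control, with a median of -0.10. NUBP2, a scaffold of cytosolic cluster assembly, was at -0.39 (SE 0.08, adjusted p = 0.0295) and lost its call without any 1 of the 5 arrays Control replicates 1 and 2 and LPA+IFNt replicates 1, 2 and 3 (0.0618 to 0.106) and with spike-in centring (0.802). Against LPA 0 of 13 were called by limma (4 at an unadjusted p under 0.05, beside 17.5% of all probe sets). With the replicate block ISCU, the main scaffold of mitochondrial cluster assembly, was lower against LPA (-0.26, adjusted p = 0.0313, or 0.134 without the block). The other radical SAM enzymes held 0 calls of 6 by limma in LPA+IFNt against Control (1 at an unadjusted p under 0.05, beside 16.7% of all probe sets). The lipoate synthase gene LIAS, with the smallest p, stood at -0.21 (adjusted p = 0.253, unadjusted p = 0.0369).

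Proteins reported to bind viperin in human or mouse cells had 0 calls by limma among 12 genes in LPA+IFNt against Control. An unadjusted p under 0.05 was found for 5 of the 12, beside 16.7% of all probe sets. HADHB and FDPS, of mitochondrial fatty acid oxidation and of farnesyl diphosphate synthesis, had -0.16 each (adjusted p = 0.123 and 0.159), and FDPS passed without LPA+IFNt replicate 1 (0.0333). Against LPA the block fit called 1 higher and 1 lower of the 12, ACAT1 (0.37, adjusted p = 0.0354) and HADHB (-0.18, adjusted p = 0.0463), where the fit without it called 0. Over the 24016 probe sets the block fit called 812 higher and 1508 lower there, so these single calls are no result about the list. In the mevalonate and cholesterol list 1 of 12 fell and 0 rose in LPA+IFNt against Control. HMGCS1, of the start of that pathway, was at -0.18 (adjusted p = 0.0402), called by 1 of its 2 probe sets. It lost its call without any 1 array other than LPA replicate 2 (0.0543 to 0.131) and with spike-in centring (0.836).

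Of 11 genes of the lipid droplet and endoplasmic reticulum surface, where viperin resides, 2 rose and 1 fell in LPA+IFNt against Control. Over all genes 3.43% rose and 3.13% fell. RAB18, a lipid droplet GTPase, fell to 9.59 ± 0.05 with LPA+IFNt, against 10.61 ± 0.10 with LPA and 10.49 ± 0.05 in Control (SD, n = 3 each). Its log2 difference was -0.91 (SE 0.05, adjusted p = 6.1e-05) from Control and -1.02 from LPA. ATL3, which shapes endoplasmic reticulum tubules, rose by 0.44 (SE 0.06, adjusted p = 0.00519) by 1 of its 2 probe sets, and missed the threshold with spike-in centring (0.0808). PLIN2, a lipid droplet coat protein, was 0.67 higher (adjusted p = 0.0483) and lost the call without any 1 array other than LPA replicate 2 or LPA+IFNt replicate 2 (0.0509 to 0.158). LPA alone gave 0 calls by limma in each of these 5 lists, with 1 of 13 at an unadjusted p under 0.05 for nucleotide and SAM supply, 3 of 13 for iron-sulphur assembly, 0 of 6 for radical SAM enzymes, 2 of 12 for binding partners and 3 of 12 for mevalonate genes, and in the lipid droplet list 0 calls and 2 of 11. In LPA against Control 8.3% of all probe sets had an unadjusted p under 0.05.

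**Figure D4:**
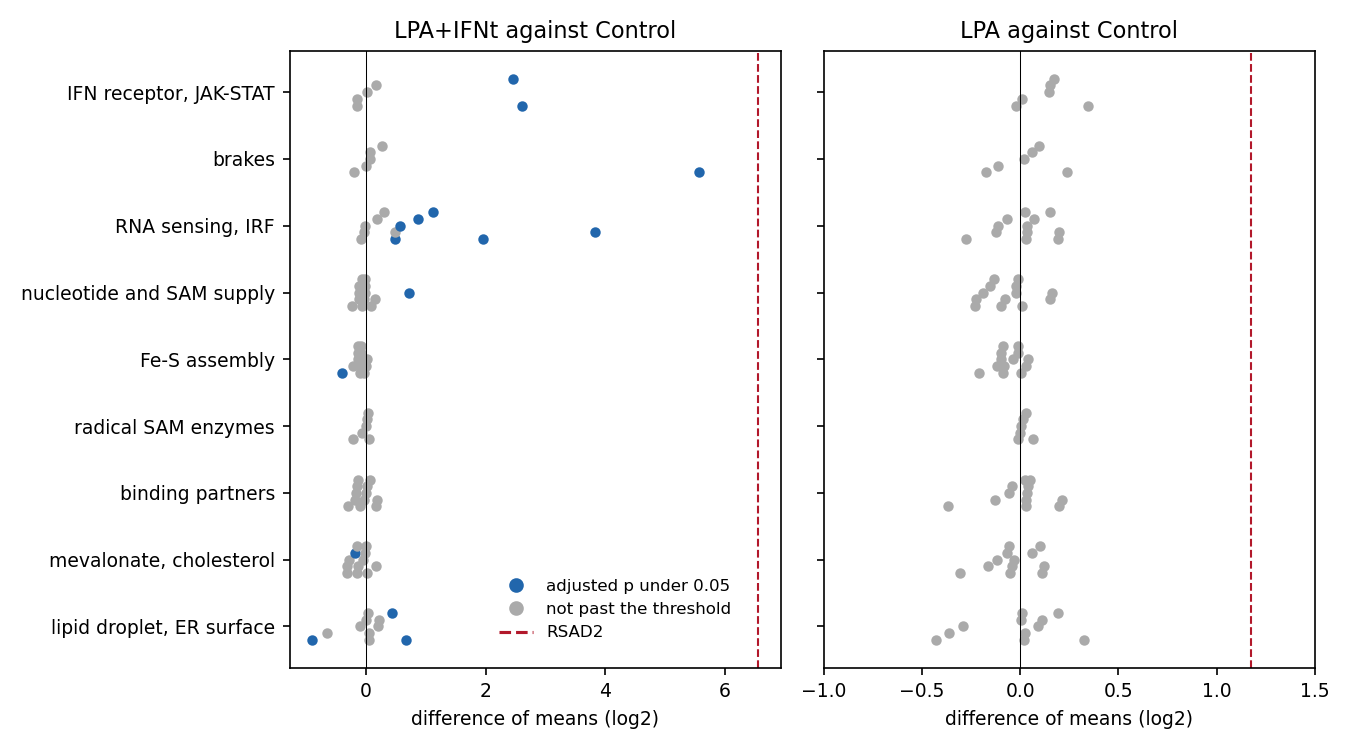
Difference of group means (log2) for the measured members of 9 gene lists around viperin, with LPA+IFNt against Control on the left and LPA against Control on the right, on different scales. Each point is a gene, blue where limma's adjusted p was under 0.05, and the dashed line marks RSAD2 at 6.56 and 1.18. Blue points reach 5.56 (USP18), the lists from nucleotide supply down lie between -0.91 and 0.72, and the right panel holds 0 blue points.

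Markers of both labelled cell types were measured. All 12 epithelial and all 12 stromal markers lay at or above the trp mark in each group. So did 6989 of 9155 genes in both LPA+IFNt and Control, so passing that mark says little about cell type. The epithelial mean over the list was 10.64 to 10.76 per array with LPA+IFNt, 10.63 to 10.72 with LPA and 10.64 to 10.76 in Control, and the stromal mean 11.05 to 11.09, 11.29 to 11.53 and 11.18 to 11.29 in the same order of groups. In LPA+IFNt against Control 3 of 12 stromal markers fell, COL3A1 (-0.51), FBN1 (-0.39) and COL1A1 (-0.39), and 1 of 12 epithelial markers rose, CDH1 (0.21), or 2 with the replicate block, which added MUC1 (0.40, adjusted p = 0.0288). Over all genes 3.43% rose and 3.13% fell against Control, and 3.75% rose and 4.16% fell against LPA. Against LPA 5 of 12 stromal markers were lower, THY1 (-0.69), COL1A1 (-0.55), COL3A1 (-0.54), FBN1 (-0.40) and COL1A2 (-0.25, adjusted p = 0.0326, or 0.0609 in the replicate block fit). COL1A2, named after its value was seen, also lost its call without Control replicate 3, LPA replicate 1 or 3, or LPA+IFNt replicate 2 or 3 (0.0604 to 0.106), and with spike-in centring all of these but THY1 did (0.273 to 0.696). The epithelial marker SPINT2 was lower against LPA as well (-0.45, adjusted p = 0.00457, or 0.609 with spike-in centring), and the block added MUC1 (0.48, adjusted p = 0.0157) and KRT18 (0.20, adjusted p = 0.0378) as higher. In LPA against Control 0 of 24 of these markers passed limma's test (6 at an unadjusted p under 0.05, beside 8.3% of all probe sets). THY1 had 0.55 (adjusted p = 0.0713) and SPINT2 0.49 (0.0566), and both passed without LPA replicate 2 (0.0461 for THY1 and 0.0124 for SPINT2). The 4 calls against Control were lost with spike-in centring (adjusted p = 0.37 for COL3A1 and 0.802 for the others). COL1A1 also lost its call without any 1 array other than LPA replicate 1 or 2 (0.0507 to 0.123), and CDH1 without Control replicate 2 (0.0511). In bulk RNA, fewer cells of a type and less RNA per cell cannot be told apart.

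Leukocytes also make viperin, and their markers were mostly dim. Of 15 leukocyte markers 7 lay at or above the trp mark with LPA+IFNt, 6 with LPA and 5 in Control, and the list mean per array was 3.20 to 3.33, 3.21 to 3.36 and 3.10 to 3.21 in that order. The T cell marker CD3E and the macrophage markers CSF1R and AIF1 were under it in all groups. CD53 was the 1 marker called in LPA+IFNt against Control, higher by 1.26 (adjusted p = 0.0252), where 3.43% of all genes were higher. Its Control mean of 2.75 lay under the trp mark, so the size of that rise is uncertain. CD53 lost the call without any 1 array other than LPA replicate 2, LPA replicate 3 or LPA+IFNt replicate 2 (0.051 to 0.0974). Against LPA CD53 was again the 1 marker called (1.15, adjusted p = 0.0336). That call was lost without any 1 array other than LPA replicate 3 or LPA+IFNt replicate 2 (0.0547 to 0.107). CD83 was not called against Control (adjusted p = 0.167), but was higher without Control replicate 3 (0.97, 0.0413) and with spike-in centring (0.82, 0.000387). CD14, a monocyte and macrophage gene, was the brightest of those named here, at 6.45 ± 0.22 with LPA+IFNt, 7.24 ± 0.43 with LPA and 7.18 ± 0.12 in Control (SD, n = 3 each). Its difference was -0.74 from Control (adjusted p = 0.11) and -0.80 from LPA (0.0758), and with the replicate block CD14 was called lower in both (0.0364 and 0.0271). CD14 was also called lower in both without LPA replicate 2 (0.0359 and 0.0124) and with spike-in centring (0.0169 and 0.00722). Against Control it was called without LPA replicate 3 (0.0437) as well. The pan-leukocyte gene PTPRC averaged 3.72 ± 0.29 with LPA+IFNt, 4.44 ± 0.72 with LPA and 3.69 ± 0.05 in Control (SD, n = 3 each), with the widest spread among the LPA arrays. LCP1 averaged 6.29 ± 0.03 with LPA+IFNt, 6.59 ± 0.27 with LPA and 6.00 ± 0.08 in Control (SD, n = 3 each). Neither passed the test in LPA against Control (PTPRC 0.75, adjusted p = 0.614, LCP1 0.59, adjusted p = 0.169), though PTPRC passed with spike-in centring (0.00985) and LCP1 without LPA replicate 3 (0.0345). In LPA+IFNt against LPA PTPRC was called lower without LPA replicate 2 (-1.08, 0.042) and with spike-in centring (-0.60, 0.0259). There LCP1 was called lower without LPA replicate 3 (-0.44, 0.0204). LCP1 was called higher in the fit of LPA+IFNt and Control alone (0.29, 0.026). The part of leukocyte and stromal RNA in the RSAD2 values was not tested.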

How the data were processed

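Affymetrix bovine arrays were run on 9 RNA pools. The deposited values are log2 levels per probe set, for which the submitters' processing notes name Partek and RMA without versions. That the log is to base 2 was inferred from their size. The 9 array medians were 4.29 to 4.37, and RMA's quantile normalization would hide a shift of most transcripts in 1 direction. Of 24128 probe sets, 112 Affymetrix controls were left out. Gene names came from the platform annotation, brought up to date by gene identifier in RefSeq (ARS-UCD2.0), which changed 0 symbols. Of the 24016 tested probe sets 13292 had 1 symbol, 86 several and 10638 none. No genome build is named, so no coordinates are given. Detection calls were not used here, and the number of arrays limits the precision.

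The 3 comparisons were fitted with limma 3.58.1 in R 4.3.3 (lmFit, eBayes, two-sided) on all 9 arrays without a block, with Benjamini-Hochberg adjustment over the 24016 probe sets and a threshold of 0.05. The brightest probe set by mean level stands for a gene. The fit was tested on simulated data. RSAD2, the gene lists and the alternatives were chosen with earlier results of these data known. The text names RSAD2, all measured members of the signalling, brake and supply lists, up to 4 called members of every other list or the 2 with the smallest p (genes beyond that, and those called only with the block, were named after their values were seen), MX1, MX2, ISG15, IFI44 and the 10 genes most like RSAD2 by 2 measures. Same-numbered arrays of different groups deviated together from their group means (9 pairs, r of 0.19 to 0.49, against -0.47 to 0.14 for 18 other pairs). The numbers in the titles thus mark arrays that vary together, and what they share was not tested. The main fit, its SE and its p-values leave this out. The fit with the replicate number as a block is given where it changes a call. Over the 24016 probe sets the block fit called 779 higher and 1306 lower in LPA+IFNt against Control, and 812 and 1508 against LPA. Alternatives were that block, leaving out each array, centring on spike-ins, fitting the 2 groups compared, leaving out dim probe sets and averaging probe sets. A motif search in the RSAD2 promoter was planned and not run, since no sequence was used here.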

Additional observations from a re-analysis of the deposited data

How the results depend on the processing

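The RSAD2 differences moved by less than the spread between replicates (SD 0.20) under every alternative run on them. That is partly fixed by the design and is no separate support for the differences. Without single arrays they were 6.50 to 6.62 for LPA+IFNt against Control, 5.21 to 5.50 for LPA+IFNt against LPA and 1.05 to 1.35 for LPA against Control, and with spike-in centring 6.66, 5.50 and 1.15. The replicate block cannot move a difference where every group holds the same replicate numbers, and it took the SE to 0.0958. An array left out of the group not compared cannot move a difference either. The calls among interferon-stimulated genes in LPA+IFNt numbered 31 or 32 without any 1 array, against Control and against LPA. In LPA against Control that number was 0 to 1 without single arrays and 1 with spike-in centring. Over all 166 listed genes other than RSAD2, 0 were called in LPA against Control (22 at an unadjusted p under 0.05, beside 8.3% of all probe sets). In that comparison 0 to 3 were called without single arrays (3 without LPA replicate 2, 1 without LPA replicate 3), 2 with spike-in centring or averaged probe sets and 1 without dim probe sets. The calls numbered 51 in LPA+IFNt against Control (43 to 54 without single arrays) and 50 in LPA+IFNt against LPA (46 to 61). In each comparison 31 of them were interferon-stimulated antiviral effectors. Over all genes 3.43% rose and 3.13% fell against Control, and 3.75% rose and 4.16% fell against LPA.

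Counts over all probe sets moved more. In LPA+IFNt against Control 1282 were called, 2085 with the replicate block and 791 (without Control replicate 2) to 1352 without single arrays. In LPA+IFNt against LPA 1571 were called, 1004 in the fit of the 2 groups and 954 (without LPA replicate 1) to 2204 without single arrays. In LPA against Control 17 were called, 11 with the replicate block, 247 with spike-in centring, 1 in the fit of the 2 groups, 37 without dim probe sets, and 0 to 169 without single arrays. The limma count was 0 on leaving out Control replicate 2 (where 1520 had an unadjusted p under 0.05) or LPA replicate 1 (1739), 8 without Control replicate 1, 28 without Control replicate 3, 169 without LPA replicate 2, and 11 without LPA+IFNt replicate 1 or 3. The cause was not tested. In the spike-in centred fit limma gave every probe set the same spread, unlike in the fit of the values as deposited, so its calls rest on the size of a difference alone. There the median over all probe sets was 0.12 in LPA+IFNt against Control and 0.14 in LPA+IFNt against LPA, and the higher and lower calls numbered 639 and 270 in LPA+IFNt against Control (595 and 687 as deposited), 713 and 361 in LPA+IFNt against LPA (614 and 957) and 128 and 119 in LPA against Control (12 and 5). No call of a listed gene changed direction. The 10 genes most like RSAD2 by r were the same 10 without dim probe sets, and 3 of them were among the 10 by root mean square difference.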
